A study of Mus musculus domesticus with 6 samples.

Results

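Caspases are proteases that take cells apart during apoptosis, and a small set of proteins decides when they are switched on. The 8 genes described here are 4 caspases (Casp2, Casp6, Casp8 and Casp9) and 4 direct regulators (Cycs, Diablo, Xiap and Cflar). They were taken by gene symbol from a list given for this work, all 8 were found among the 55359 entries of each table, and all 8 had enough reads to be among the 13117 genes tested. RNA was sequenced from BFU-E, the earliest progenitors committed to the red cell lineage, sorted from mouse fetal liver at E14.5 and labelled, in both groups, as GFP-positive, lineage-negative, Kit-positive cells low in CD24 and CD71. There were 3 libraries from Exosc3 fl/fl Cre- embryos and 3 from Exosc3 fl/fl Cre+ embryos, so both groups were homozygous for the floxed Exosc3 gene and differed in the Vav1-Cre transgene, which acts in blood cells from their earliest stages. The EXOSC3 protein is part of the RNA exosome, which degrades and trims RNA from its 3' end. The design text says that each of 3 litters gave 2 of the samples, and the labels do not say how the GFP gate was set for embryos without Cre.

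In the mitochondrial pathway, BCL2 family proteins open the outer mitochondrial membrane and release cytochrome c, encoded by Cycs. Cytochrome c binds APAF1, and the resulting apoptosome activates caspase-9, which in turn cleaves the executioner caspases. XIAP holds caspase-9 and the executioners in check, and Diablo (also called Smac), released from mitochondria with cytochrome c, displaces XIAP. In the death receptor pathway, caspase-8 is activated on FADD, where FLIP, the product of Cflar, competes with it. Caspase-2 is activated on a separate platform, the PIDDosome, and caspase-6 is an executioner. In the red cell lineage, caspases are also known to act during normal maturation.

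The sequence that separates the caspases from FLIP lies around the catalytic cysteine. The stretches below are coding strand, 5' to 3', from the GENCODE M21 transcripts (mouse build GRCm38, an older build than that of the deposited tables), and each is 36 bases long. Capitals mark the codon of the catalytic cysteine in the caspases and, in Cflar, the codon at the same distance from a run of 4 residues that it shares with Casp8.
Casp2: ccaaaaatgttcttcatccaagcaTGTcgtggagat
Casp6: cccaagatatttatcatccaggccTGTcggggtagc
Casp8: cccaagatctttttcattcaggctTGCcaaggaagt
Casp9: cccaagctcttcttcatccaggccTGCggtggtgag
Cflar: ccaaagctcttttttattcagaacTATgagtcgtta
The marked codon begins at coding base 958 in Casp2, 436 in Casp6, 1144 in Casp8 and 973 in Casp9, and it is a cysteine codon in all 4. In Cflar it begins at coding base 1093 and is not a cysteine codon. Casp8 and Cflar both lie on chromosome 1, Casp2 and Cycs on chromosome 6, Casp6 on chromosome 3, Casp9 on chromosome 4, Diablo on chromosome 5 and Xiap on the X chromosome.

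The libraries held 89629949 to 124931215 expected counts. The targeted gene Exosc3 stood at 48.1 ± 3.8 CPM without and 26.4 ± 4.07 CPM with Cre (CPM are read counts relative to the scaled library size; mean ± SD, n = 3) without overlap between the groups, and it did not pass over all genes (edgeR quasi-likelihood adjusted p = 0.259). The eGFP entry of the tables had 91, 0 and 197 reads in the libraries without Cre and 4884, 3311 and 4206 in those with Cre, or 0.844 ± 0.798 and 37.7 ± 1.45 CPM, without overlap (log2 fold change 5.48, SE 1.16; edgeR adjusted p = 0.187). The Cre-negative libraries thus held little eGFP RNA although their label gives a GFP-positive gate, and a difference in gate and the genotype cannot be told apart here. Erythroid markers summed to 723 to 849.7 CPM in the Cre-negative and 911 to 1250.2 CPM in the Cre-positive libraries. Of 9 erythroid markers 7 were tested, 5 with a log2 fold change above 0 and 2 below (-0.77 to 1.09). Only Car2 was called (log2 fold change 1.09, edgeR adjusted p = 0.00787), and the CPM of only 1 of the 7 did not overlap between the groups. Summed neutrophil and monocyte markers lay at 578 to 1498 and 229.8 to 509.8 CPM in the same order, with 2 of 10 (Ly6c2 and S100a8) at 0 in all libraries, and lymphoid markers at 41.9 to 129 and 1.59 to 17.8 CPM, with 2 of 9 (Dntt and Cd3e) at 0. Hepatocyte markers summed to 7.08 to 12.4 and 3.02 to 6.61 CPM, with 3 of 7 (Afp, Apoa2 and Ttr) at 0. None of these 4 sums overlapped between the groups, and their part in the results below was not tested. Of 8 tested neutrophil and monocyte markers, 7 had a log2 fold change below 0 and 1 above (-3.77 to 0.39). Of the 8, 5 were lower without overlap. All 5 tested lymphoid markers were below 0, 3 of them without overlap. The 2 tested hepatocyte markers were below 0 with overlap. No marker of these 3 lists was called by edgeR. Of the macrophage markers 4 of 6 were at 0 in every library, Adgre1 and C1qa among them, and the list summed to at most 3.73 CPM. Megakaryocyte markers (41.6 to 78.2 and 50.3 to 90.6 CPM), mast cell, basophil and eosinophil markers (64.2 to 122 and 59.7 to 106 CPM, 5 of 8 at 0) and endothelial and stromal markers (19.1 to 35.8 and 5.68 to 22.4 CPM, 4 of 8 at 0) overlapped between the groups. The sort markers Kit, Cd24a and Tfrc summed to 668 to 811 and 678 to 847 CPM. That sum hides opposite directions, with log2 fold changes from -0.19 to 0.53. Of the 3 genes, 1 was higher and 1 lower in Cre-positive libraries without overlap, and edgeR called none. Such non-overlap was seen for 7.53% (higher) and 7.66% (lower) of all tested genes. In these bulk samples, fewer cells of a type and less RNA per cell cannot be told apart.

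None of the 8 genes differed between Cre-positive and Cre-negative BFU-E at an adjusted p under 0.05 over all genes (edgeR quasi-likelihood test with Benjamini-Hochberg adjustment), against 0.122% of all tested genes, which were all higher with Cre. None passed at an unadjusted p under 0.05 either, against 8.23% of all tested genes, and DESeq2 and limma-voom called none. At an unadjusted p under 0.05 those tools gave Cycs alone, with 0.0268 and 0.0407. The CPM ranges of the groups overlapped for all 8. They did not overlap for 15.2% of all tested genes (7.53% higher and 7.66% lower in Cre-positive libraries), and none of 8 is near that share. All 8 log2 fold changes were below 0, between -0.33 and -0.06 with a median of -0.22, beside a median of -0.01 over all tested genes, of which 50.8% were below 0. That shared sign is a description of these libraries, since the 8 genes were measured in the same samples. Leaving out single libraries left 6 to 8 of the 8 below 0.

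**Figure D1:**
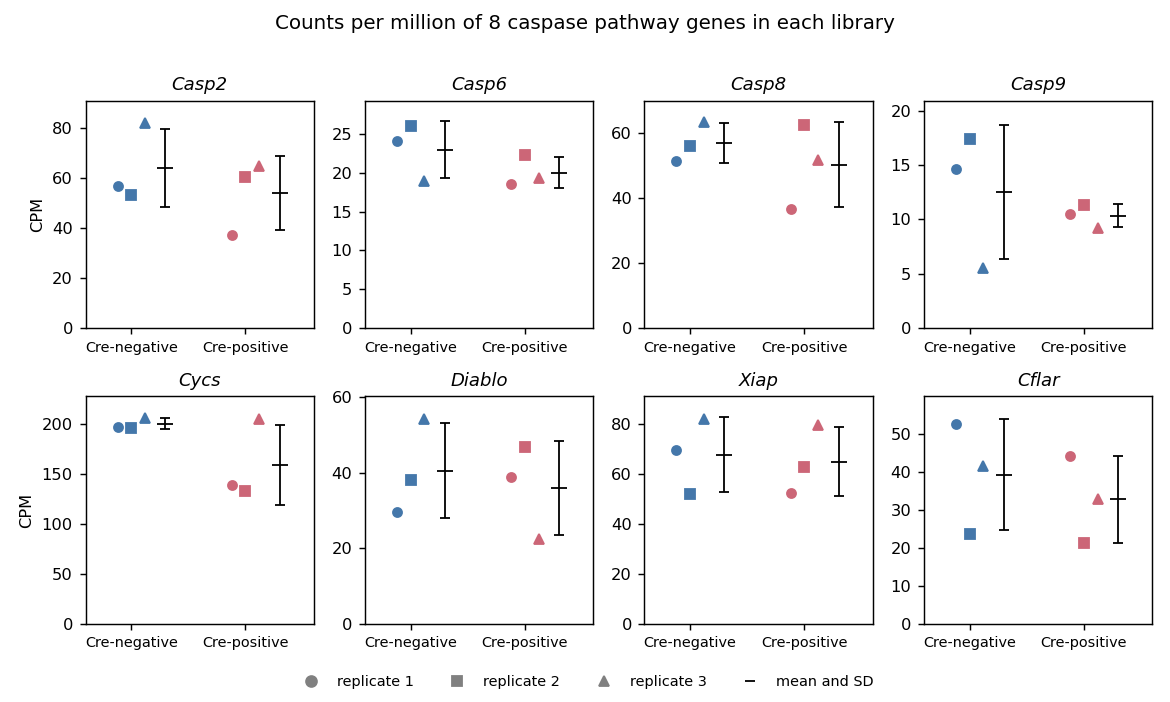
CPM (vertical axis, from 0, with its own scale in each panel) of the 8 genes in the 3 Cre-negative and 3 Cre-positive libraries, with symbols for the replicate number and bars for the mean and SD. The groups overlap in every panel, and the Cycs panel shows 2 Cre-positive libraries at 133 and 139 CPM below the others at 196 to 206 CPM.

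In each sentence of library values below, the 3 values of a group follow the order of replicates 1, 2 and 3. SE is the standard error of the log2 fold change. Cycs (ENSMUSG00000063694), the cytochrome c of somatic cells and an electron carrier of the respiratory chain, was the most abundant of the 8. It measured 197, 196 and 206 CPM in the libraries without Cre and 139, 133 and 205 CPM in those with Cre. Cre-positive replicates 1 and 2 lay below every Cre-negative library, while Cre-positive replicate 3 lay within their range. The means were 199.6 ± 5.5 and 159 ± 40.2 CPM (SD, n = 3 each), and the log2 fold change was -0.33 (SE 0.16; edgeR adjusted p = 0.695, unadjusted p = 0.0747). The 95% interval ran from 0.618 to 1.03 times the Cre-negative level. Without Cre-positive replicate 3 the log2 fold change was -0.55 with an adjusted p of 0.192, the lowest of a range of 0.192 to 0.923 over the alternatives. Without Cre-positive replicate 1 or 2 it was -0.24 and -0.21, respectively. With all libraries DESeq2 gave an adjusted p of 0.268. The SD was 2.76% of the mean in Cre-negative libraries and 25.3% in Cre-positive libraries.

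The mouse genome holds near-identical copies of the Cycs coding sequence, and reads from stretches they share are divided by the authors' counting. In GENCODE M21, 9 other genes matched at least 50% of the 318 coding bases at 90% identity or more, and Gm10053 was identical over all of them. The first 60 coding bases are shown to make this plain, since these letters are the same in Cycs and in Gm10053.
Cycs: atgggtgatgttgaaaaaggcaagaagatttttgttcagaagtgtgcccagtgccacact
The deposited tables gave Gm10053 between 74 and 480 reads per library, against 11791 to 25583 for Cycs, and Gm10108, which differs from Cycs at 2 coding bases, had at most 2 reads. The other 7 copies were listed at 0. Adding the reads of both copies to Cycs left its log2 fold change at -0.33 (edgeR adjusted p = 0.666, range as above).

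Casp9 (ENSMUSG00000028914), the initiator caspase of the apoptosome, was the scarcest of the 8. It measured 14.6, 17.4 and 5.54 CPM in the libraries without Cre and 10.5, 11.3 and 9.25 CPM in those with Cre. All 3 Cre-positive libraries lay between the lowest and the other Cre-negative values. The log2 fold change was -0.28 (SE 0.50; edgeR adjusted p = 0.991), and the 95% interval ran from 0.379 to 1.8 times the Cre-negative level, the widest of the 8. Cre-negative replicate 3, the low library, held 688 reads of Casp9, and the highest, Cre-negative replicate 2, held 1829. Without these libraries the log2 fold change was -0.63 and 0.04, respectively.

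Xiap (ENSMUSG00000025860), the inhibitor that binds caspase-9 and the executioner caspases, measured 69.4, 52.0 and 81.8 CPM in the libraries without Cre and 52.4, 62.9 and 79.5 CPM in those with Cre. The ranges were nearly the same, and the means of 67.7 ± 15.0 and 64.9 ± 13.7 CPM differed by less than either SD. Its log2 fold change of -0.06 (SE 0.22; edgeR adjusted p = 0.999) was the smallest of the 8, with a 95% interval of 0.68 to 1.35 times. Per transcript length the picture was different. In TPM, the authors' values scaled for length, Xiap stood at 21, 19.6 and 16.7 in the libraries without Cre and 12.2, 14.3 and 15.2 in those with Cre, without overlap. That was so for 7.67% of all tested genes in this direction and for 5.87% in the other. Effective-length offsets moved the log2 fold change to -0.43 (edgeR adjusted p = 0.779; alternatives gave 0.752 to 1), so Xiap did not pass on that scale either. The same offsets gave -0.43 for Casp2, -0.57 for Casp9, -0.34 for Cycs, -0.27 for Diablo, -0.26 for Casp6, -0.05 for Casp8 and -0.10 for Cflar. None of these passed.

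Diablo (ENSMUSG00000029433), the mitochondrial antagonist of XIAP, measured 29.5, 38.0 and 54.2 CPM in the libraries without Cre and 38.9, 46.9 and 22.4 CPM in those with Cre. The highest library was Cre-negative replicate 3 and the lowest was Cre-positive replicate 3. The log2 fold change was -0.17 (SE 0.32; edgeR adjusted p = 0.994), and its 95% interval was 0.537 to 1.47 times. It became 0.09 without Cre-negative replicate 3 and 0.08 without Cre-positive replicate 3. Gm49027, a gene model that matches the Diablo coding sequence at 99.2% identity, had 54 reads in Cre-negative replicate 3 and none in the others.

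Casp8 (ENSMUSG00000026029), the initiator caspase of death receptors, measured 51.6, 56.0 and 63.5 CPM in the libraries without Cre and 36.6, 62.7 and 51.8 CPM in those with Cre. One Cre-positive library, replicate 1, lay below all others. Its log2 fold change was -0.18 (SE 0.22; edgeR adjusted p = 0.966), and 0.01 without Cre-positive replicate 1. The 95% interval was 0.623 to 1.25 times.

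Cflar (ENSMUSG00000026031), which encodes the caspase-8 inhibitor FLIP, measured 52.6, 23.6 and 41.5 CPM in the libraries without Cre and 44.1, 21.3 and 32.9 CPM in those with Cre. Replicate 2 was the lowest and replicate 1 the highest in both groups. The spread within a group thus exceeded the difference between the means, 39.2 ± 14.7 against 32.8 ± 11.4 CPM. The log2 fold change was -0.26 (SE 0.35; edgeR adjusted p = 0.972), and the 95% interval was 0.483 to 1.45 times. Without Cre-negative replicate 1 it was 0.01.

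Casp2 (ENSMUSG00000029863), the PIDDosome caspase, measured 56.8, 53.4 and 82.0 CPM in the libraries without Cre and 37.3, 60.6 and 64.8 CPM in those with Cre. Cre-positive replicate 1 was the lowest library and Cre-negative replicate 3 the highest. Its log2 fold change was -0.24 (SE 0.25; edgeR adjusted p = 0.954) and its 95% interval was 0.57 to 1.26 times. It ranged from -0.39 to -0.02 when single libraries were left out.

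Casp6 (ENSMUSG00000027997), an executioner caspase known to cleave nuclear lamins, measured 24.1, 26.0 and 18.9 CPM in the libraries without Cre and 18.5, 22.3 and 19.3 CPM in those with Cre. The groups overlapped through Cre-negative replicate 3. Its log2 fold change was -0.20 (SE 0.29; edgeR adjusted p = 0.979) and its 95% interval was 0.559 to 1.36 times. It was -0.10 without Cre-negative replicate 2 and -0.32 without Cre-negative replicate 3. In TPM the groups did not overlap, at 23.0, 25.8 and 21.8 in the libraries without Cre and 17.6, 20.8 and 19.1 in those with Cre. The same held for 7.67% of all tested genes in this direction. On log2(TPM + 1) the difference was -0.28 (limma adjusted p = 0.822; alternatives gave 0.822 to 1).

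For 6 of the 8 genes the 95% interval lay inside a 2-fold change in either direction. The exceptions were Casp9 and Cflar, for which a fall by more than 2-fold remained inside the interval. Of all tested genes averaging 1000 counts or more, 66.1% had an interval inside those limits. An adjusted p above the threshold does not show that the levels were equal, and smaller changes than these intervals allow were not detectable with 3 libraries a group.

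**Figure D2:**
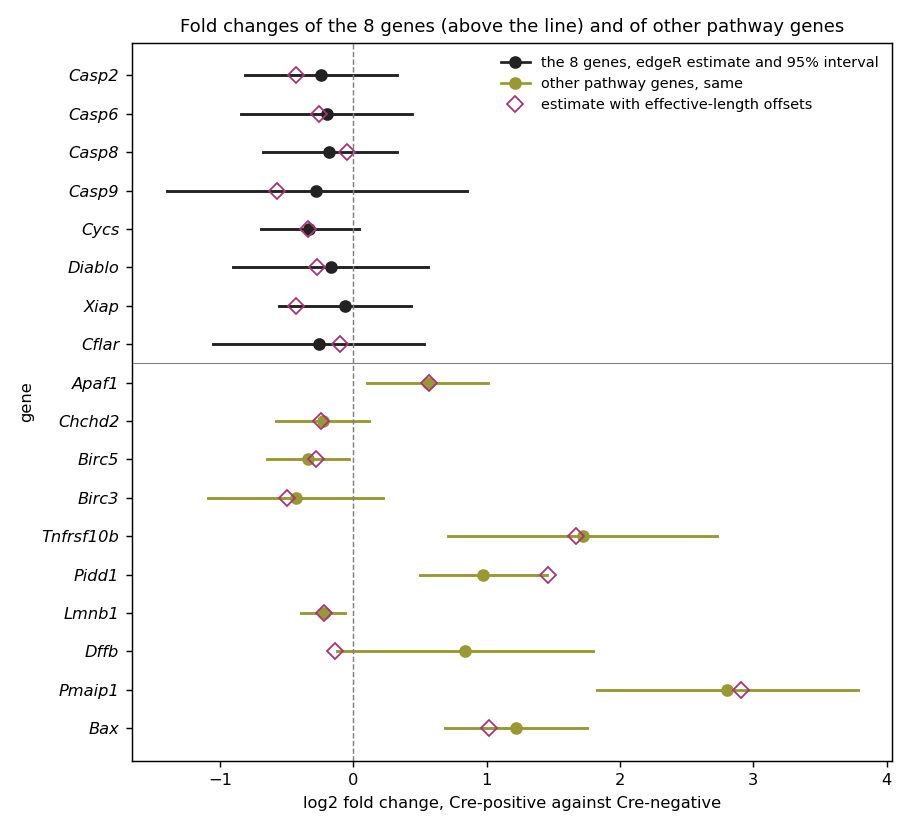
Log2 fold changes of Cre-positive against Cre-negative (horizontal axis) for the 8 genes, above the line, and other named pathway genes, below it, as edgeR estimates with 95% intervals, and open diamonds for estimates with effective-length offsets. All 8 intervals above the line include 0, Xiap moves from -0.06 to -0.43 with the offsets, and of the genes drawn Pmaip1 lies farthest to the right at 2.80. Fas and Nol3, with 0 reads in every Cre-negative library, and genes named outside the rule, such as Bbc3 at 3.54, are not drawn.

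Levels can be compared between genes per transcript length. In Cre-negative libraries the mean TPM ran from Cycs (111 ± 28.6) through Diablo (39.9 ± 10.6), Casp8 (38.5 ± 8.14), Casp2 (28.5 ± 7.87), Casp6 (23.5 ± 2.05), Xiap (19.1 ± 2.2) and Cflar (12.2 ± 5.69) to Casp9 (9.72 ± 5.09; SD, n = 3 each). Cycs stood above Diablo, Casp6 above Xiap, and Xiap above Cflar without overlap of their 3 libraries. The neighbours Diablo and Casp8, Casp8 and Casp2, Casp2 and Casp6, and Cflar and Casp9 overlapped and did not differ beyond their spread. In Cre-positive libraries the order was the same except that Casp8 (36.1 ± 9.51) stood above Diablo (32.1 ± 12.2), again with overlap. There Cycs above Casp8 and Casp6 above Xiap were the neighbours without overlap. Cycs thus led and Casp9 came last in both groups, at 85.4 ± 22.1 and 6.38 ± 2.97 TPM in the Cre-positive libraries.

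**Figure D3:**
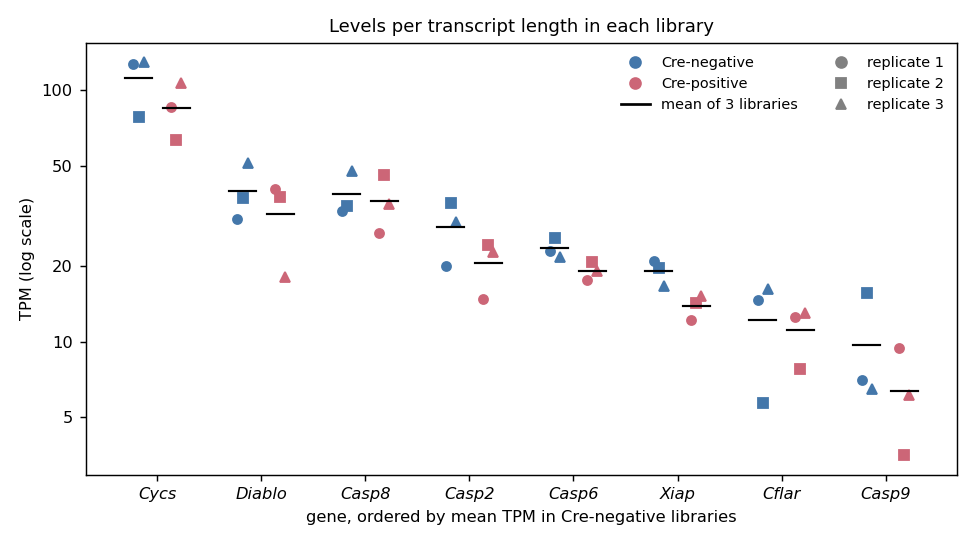
TPM (vertical axis, log scale) of the 8 genes in each of the 6 libraries, ordered along the horizontal axis by the Cre-negative mean, with lines for the mean of 3 libraries. Cycs lies above every other gene in all libraries, and the Xiap and Casp6 groups are separated on this scale.

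TPM depends on which transcripts the reads were assigned to, and the tables list between 2 (Cycs) and 13 (Cflar) transcripts for these genes. The deposited mean transcript length of Xiap varied from 3283 to 6025 bases over the Cre-negative and from 5016 to 6154 bases over the Cre-positive libraries. For Casp9 it varied from 1321 to 2647 bases in Cre-negative libraries and reached 3897 bases, the length of 1 coding transcript (ENSMUST00000030747), in Cre-positive replicate 2. For Cycs it reached 3123 bases, the length of its coding transcript (ENSMUST00000161401), in Cre-negative replicate 2 and was 2061 to 2676 bases in the other 5 libraries. Mean lengths overlapped between the groups for all 8 genes. They did not for 8.29% of tested genes with several transcripts, and none of 8 is near that share.

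The balance of an inhibitor and its partner within a library does not depend on library scaling. The ratio of Cflar to Casp8 in TPM was 0.446, 0.165 and 0.339 in the libraries without Cre and 0.463, 0.169 and 0.368 in those with Cre. Caspase-8 transcripts thus outnumbered those of its inhibitor in all 6 libraries. The groups had nearly the same range, with a log2 difference of 0.07 and an exact permutation p of 0.7 (two-sided, 3 against 3, where the smallest possible p is 0.1). Libraries with the same replicate number had closely similar ratios, each slightly higher in the Cre-positive one. Whether a number stands for a litter is not stated in the labels. From expected counts, which are not per length, the log2 difference was -0.04 and the ratio was higher in the Cre-positive library of 1 of 3 such pairs.

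The ratio of Xiap to its antagonist Diablo was 0.684, 0.525 and 0.324 in the libraries without Cre and 0.3, 0.38 and 0.837 in those with Cre. Diablo transcripts outnumbered those of Xiap in every library, and the groups overlapped (log2 difference -0.10, exact permutation p = 0.9). The ratio of Xiap to Casp9 was 2.97, 1.26 and 2.57 in the libraries without Cre and 1.29, 4.04 and 2.47 in those with Cre. Xiap exceeded Casp9 in all 6 libraries, with a log2 difference of 0.14 (exact permutation p = 0.9). With Benjamini-Hochberg adjustment over these 3 ratios, every p was 0.9.

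**Figure D4:**
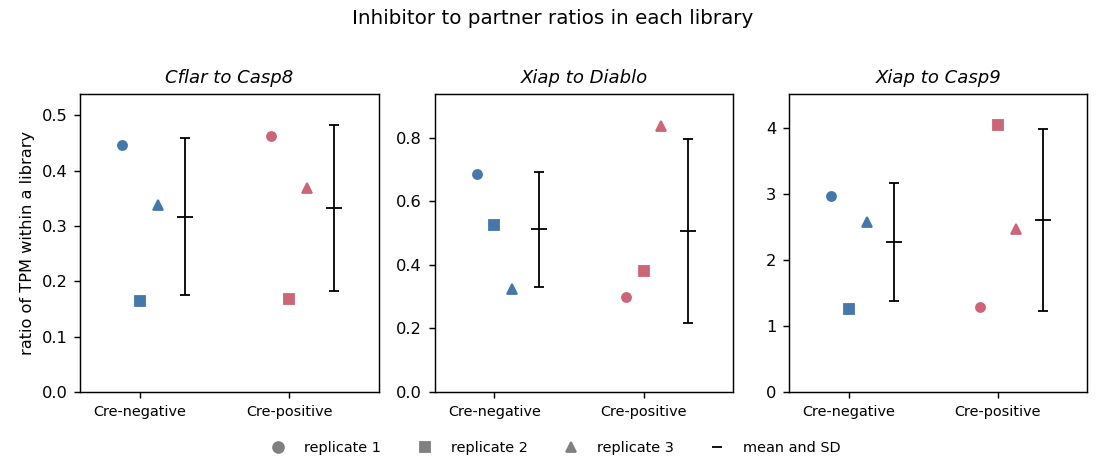
Ratios of TPM within a library (vertical axes, from 0) for Cflar to Casp8, Xiap to Diablo and Xiap to Casp9 in the Cre-negative and Cre-positive libraries, with symbols for the replicate number and bars for the mean and SD. The groups overlap in all 3 panels, and replicate 2 has the lowest Cflar to Casp8 ratio in both groups, at 0.165 and 0.169.

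Around these 8 genes, 69 other genes of caspase activation, inhibition and action were read from the same test, and 59 of them had enough reads. None passed over all genes (edgeR), an unadjusted p under 0.05 was reached by 8 upward and 3 downward, beside 4.05% and 4.19% of all tested genes, and the median log2 fold change was -0.01. DESeq2 called 8 of them (Fas, Tnfrsf10b, Pidd1, Bax, Bbc3 and Pmaip1 higher, and Lmnb1 and Bcl2 lower), and limma-voom called none. DESeq2's calls made up 3.45% of all tested genes (1.79% higher and 1.66% lower). Fas and Nol3, counted among the 8 upward, had no reads without Cre. They passed the low-count filter only through the Cre-positive libraries. Bbc3 (log2 fold change 3.54, edgeR adjusted p = 0.179) and Bcl2 (-1.43, edgeR adjusted p = 0.314) are named here after their values were seen. By list, no tested gene was called in either direction by edgeR. The median log2 fold change was 0.02 over 9 of 10 genes of the apoptosome and mitochondrial release, and -0.34 over 9 of 10 of the XIAP family and its binders. It was 0.14 over 11 of 13 genes of the death receptor platform and 0.44 over 5 of 5 of the list of the PIDDosome and caspase-2 regulators. The 0.44 is the value of Cradd alone (SE 0.91), whose groups overlapped. The median was -0.22 over 12 of 12 caspase substrates and 0.23 over 11 of 13 of the BCL2 family.

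The inflammatory caspase genes Casp1, Casp4 and Casp12 and the skin caspase gene Casp14 had too few reads to be tested. Casp1 had 170 and 140 reads in Cre-negative replicates 1 and 3 and none elsewhere, and Casp4 had at most 306 reads, in Cre-positive replicate 1.

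Platforms on which the initiators are activated had higher values in Cre-positive libraries at single genes, and none of these passed over all genes. Pidd1, the scaffold of the PIDDosome that activates caspase-2 and a known p53 target, stood at 38.0, 26.1 and 28.4 CPM in the libraries without Cre and 59.2, 56.9 and 65.4 CPM in those with Cre. Every Cre-positive library lay above every Cre-negative one, as for 7.53% of all tested genes. The log2 fold change of Pidd1 was 0.97 (SE 0.21; edgeR adjusted p = 0.202; DESeq2 adjusted p = 0.000241; alternatives gave 0.000241 to 0.497). Its partner on the list with the next smallest p, Nol3, which encodes a caspase inhibitor with a CARD domain, had no reads in any Cre-negative library and 25, 47 and 133 reads in the Cre-positive replicates. That is at least 22.5-fold higher against a floor of 3 counts per library (edgeR adjusted p = 0.387; alternatives gave 0.233 to 0.821), which covers counting error of reads only. Genes with reads in 1 library only had a median of 107 reads there, more than the 25 and 47 reads of Nol3. The fold is therefore not a firm lower bound. On log2(TPM + 1) the difference of Nol3 was 0.31 (limma adjusted p = 0.821). Nol3 also passed the low-count filter only through the Cre-positive libraries, so its p-values are no independent support. The RNA of Casp2, whose protein the PIDDosome activates, had a 95% interval with an upper bound of 1.26 times. The difference between Pidd1 and Casp2 was not tested.

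Apaf1, the scaffold of the apoptosome, stood at 42, 37.0 and 41.8 CPM in the libraries without Cre and 55.0, 50.2 and 72.5 CPM in those with Cre. The groups did not overlap, as for 7.53% of all tested genes in this direction, and the log2 fold change was 0.56 (SE 0.20; edgeR adjusted p = 0.467; alternatives gave 0.0974 to 0.808). In TPM the groups did overlap, at 8.75, 7.58 and 11.2 without Cre and 11.3, 10.5 and 18.1 with Cre. The other members of the apoptosome, Casp9 and Cycs, had log2 fold changes of -0.28 and -0.33 in the main edgeR fit. The difference between Apaf1 and these 2 genes was not tested. Chchd2, a mitochondrial protein that restrains cell death, had a log2 fold change of -0.23 (edgeR adjusted p = 0.849), and Cyct, the testis form of cytochrome c, was listed at 0 in all libraries.

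At the death receptors, Tnfrsf10b, the receptor for TRAIL, measured 6.6, 9.24 and 3.43 CPM in the libraries without Cre and 22.7, 21.9 and 18.7 CPM in those with Cre. Its log2 fold change was 1.72 (SE 0.45; edgeR adjusted p = 0.278; DESeq2 adjusted p = 0.00223; alternatives gave 0.00223 to 0.582). Fas, another death receptor, had no reads in the Cre-negative libraries and 247, 328 and 300 reads in the Cre-positive replicates. Against a floor of 3 counts per library that is at least 98.9-fold higher (edgeR adjusted p = 0.249; DESeq2 adjusted p = 2.66e-05; alternatives gave 2.66e-05 to 0.582). This floor covers counting error of reads only. Genes with reads in 1 library only had a median of 107 reads there, so the fold is not a firm lower bound. Tnfrsf10b was above every Cre-negative library in 3 of 3 Cre-positive libraries, as were 7.53% of all tested genes. Fas, with no reads without Cre, could be tested only if all 3 Cre-positive libraries had reads. The low-count filter thus fixed its non-overlap in advance, and its p-values are no independent support. Downstream of the 2 receptors, the adaptor Fadd had a log2 fold change of 0.14 (SE 0.43) and Casp8 of -0.18, and the difference from the receptors was not tested. Tnfrsf1a, the receptor for TNF, measured 10.3, 5.82 and 17.3 CPM in the libraries without Cre and 9.02, 3.42 and 0.46 CPM in those with Cre, with overlap (log2 fold change -1.37, SE 0.94; edgeR adjusted p = 0.86). Fadd and Tnfrsf1a lie outside the rule for named genes and were chosen after their values were seen. The ligand genes Fasl and Tnf had too few reads, with Fasl listed at 0 in all libraries.

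In the list of the XIAP family and its binders, Birc5 and Birc3 had the smallest p. Birc5 encodes survivin, which also acts in mitosis, and measured 112, 98.7 and 98.7 CPM in the libraries without Cre and 74.1, 82.1 and 88.5 CPM in those with Cre. Its log2 fold change was -0.34 (SE 0.14; edgeR adjusted p = 0.549; alternatives gave 0.18 to 0.889). Birc3, a ubiquitin ligase of the TNF receptor complex, averaged 26.8 ± 1.09 and 19.9 ± 5.14 CPM without overlap (edgeR adjusted p = 0.851). Non-overlap in this direction was seen for 7.66% of all tested genes. Of 9 tested genes of this list, 7 had a log2 fold change below 0, with a median of -0.34, and none passed. Birc7 was listed at 0 in every library.

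Among caspase substrates and effectors, Lmnb1, which encodes lamin B1 of the nuclear envelope, measured 1138, 1135 and 1270.4 CPM in the libraries without Cre and 1012, 1043 and 979 CPM in those with Cre. The log2 fold change was small and precise, at -0.22 (SE 0.07; edgeR adjusted p = 0.384; DESeq2 adjusted p = 0.023; alternatives gave 0.023 to 0.634). Dffb, the nuclease that cuts chromosomal DNA once caspases have removed its inhibitor, was at 9.4 ± 3.03 and 16.8 ± 3.99 CPM without overlap (log2 fold change 0.84, edgeR adjusted p = 0.705). Non-overlap in this direction was seen for 7.53% of all tested genes, and the sign of Dffb turned to -0.14 with effective-length offsets. Upstream, the BCL2 family genes with the smallest p were Pmaip1 and Bax. Pmaip1 encodes Noxa and had a log2 fold change of 2.80 (edgeR adjusted p = 0.0598; alternatives gave 2.98e-10 to 0.303), and Bax, which forms the mitochondrial pore, had 1.22 (edgeR adjusted p = 0.138; alternatives gave 1.13e-05 to 0.49). Bik and Bcl2a1d were listed at 0 in all libraries.

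Cycs had the smallest p of the 8 genes, and the genes whose pattern over the 6 libraries lay nearest to it were sought among 7965 genes. Likeness was the Euclidean distance between log2 CPM values scaled to mean 0 and SD 1 over the 6 libraries, for which the median over those genes was 3.22. The 4 nearest were Dock8 (distance 0.23), a guanine nucleotide exchange factor of blood cells, Zfp451 (0.27), a SUMO ligase with zinc fingers, Sipa1 (0.29), a GTPase-activating protein for Rap, and Arf1 (0.31), a GTPase of Golgi transport. Dock8 measured 116, 115 and 114 CPM in the libraries without Cre and 69.0, 65.2 and 117 CPM in those with Cre. Each of the 4 shared the feature of Cycs that Cre-positive replicates 1 and 2 were low and Cre-positive replicate 3 was not. They were picked for this likeness among 7965 genes, and nothing is read from it.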

How the data were processed

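Total RNA of 6 sorted samples was extracted with a Qiagen RNeasy Micro kit and made into libraries with Takara's stranded Pico kit, per the labels' protocols. The submitters' processing notes name STAR 2.5.3a, RSEM 1.3.0 and GRCm39 (mm39), and neither the annotation release nor the strand setting is given in the sources used here. The deposited tables give an expected count, TPM, FPKM and a mean and effective transcript length per gene, per the file headers. FPKM was not used. Of the deposited expected counts 2.64% were not whole, and they were rounded before testing. Symbols came from gene identifiers without their version (52081 of 55359 entries matched).

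Genes were kept by edgeR's filterByExpr and scaled by TMM factors (0.988 to 1.017). Cre-positive was tested against Cre-negative over all 13117 genes with edgeR 4.0.16 (glmQLFit, glmQLFTest; R 4.3.3), Benjamini-Hochberg adjustment and a threshold of 0.05, and the fit was tested on simulated data. Standard errors were taken as log2 fold change over root F, and 95% intervals use the t distribution of that fit. CPM use the scaled library sizes. Ratios were compared by exact permutation tests, two-sided. The design text names 3 litters and the labels name no animals, so p-values measure the spread between these samples, and floors cover counting error of reads only. Alternatives were DESeq2 1.42.0, limma 3.58.1 (voom, and log2 of TPM plus 1 or 0.1), other factors and filters, effective-length offsets, the replicate number as a block, each library left out and, chosen after seeing the data, reads of near-identical copies added to Cycs and Diablo.

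The 8 genes, the pathway lists and the markers were chosen with earlier results of these data known. All 8 were named; from each pathway list those past the threshold, the 2 with the smallest p and those not tested were named (some genes that this rule names are not reported here), and for the gene of the 8 with the smallest p the 4 nearest patterns among genes averaging 1000 counts or more. Copies were found with blastn among GENCODE M21 transcripts.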

Additional observations from a re-analysis of the deposited data

How the results depend on the processing

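None of the 8 genes was called under any of the 17 alternatives, and 129 of their 136 values kept a log2 fold change below 0. The other 7 came from leaving out 1 library: Casp8 0.01 without Cre-positive replicate 1, Casp9 0.04 without Cre-negative replicate 2, Diablo 0.09 and 0.08 without replicate 3 of either group, Xiap 0.10 without Cre-negative replicate 3 and 0.07 without Cre-positive replicate 1, and Cflar 0.01 without Cre-negative replicate 1. With single libraries left out, Casp8 ranged from -0.37 to 0.01, Casp9 from -0.63 to 0.04, Diablo from -0.40 to 0.09, Xiap from -0.23 to 0.10, Cflar from -0.53 to 0.01, Cycs from -0.55 to -0.21, Casp6 from -0.32 to -0.10 and Casp2 from -0.39 to -0.02. The cause was not tested. Dffb was -0.14 with effective-length offsets and -0.13 on both TPM scales. The ratio of Cflar to Casp8 had a log2 difference of -0.04 and that of Xiap to Diablo 0.13 from expected counts. Without single libraries the 3 ratios ranged from -0.34 to 0.50, -0.53 to 0.21 (Xiap to Diablo) and -0.25 to 0.57 (Xiap to Casp9).

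Over all genes edgeR called 16 higher and 0 lower. The calls were 33 and 6 without a low-count filter, 58 and 26 among genes averaging 1000 counts or more, 38 and 18 with the replicate number as a block, 235 and 218 with DESeq2, 6 higher with effective-length offsets and 6 higher on each TPM scale. Without single libraries they numbered 7 to 15 and 0 to 3, with 8 higher without Cre-positive replicate 1 and 7 without Cre-positive replicate 2, and 3 lower without Cre-negative replicate 2 or Cre-positive replicate 3. Unadjusted p was under 0.05 for 549 lower genes. Of the other pathway genes 1 was called without a low-count filter (Pmaip1), 3 among genes averaging 1000 counts or more (Pmaip1, Bax and Bbc3), 1 with the block (Pmaip1, adjusted p = 0.0481) and 8 with DESeq2, and 0 without any single library.

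Same-numbered libraries deviated together with correlations of 0.06, 0.10 and 0.18 over 8338 genes, each the highest for its library, against -0.13 to 0.04 for different numbers. This is a hint of pairing from the data. The numbers were not taken to pair the samples, because the labels do not tie them to litters. The main fit has no litter term, so any litter effect stays in its residual spread and is not separated from it. The block changed no call among the 8 genes, where Cycs had -0.36 (adjusted p = 0.475), and a sign-flip test within numbers gave exact p = 0.25, the smallest that 3 pairs can give, for Cflar to Casp8 (0.07) and 1 for Xiap to Diablo (-0.10) and Xiap to Casp9 (0.14), with the same differences by construction.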
